A study of Mus musculus with 6 samples.

Results

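Heat shock proteins and chaperonins were examined in epididymal white adipose tissue (WAT) of mice after timed sleep restriction (TSR). The members were taken by gene symbol: the HSP70 (Hspa) genes and the HSP110-type genes Hsph1, Hspa4 and Hspa4l, HSP90, HSP60 (Hspd1) with HSP10 (Hspe1), the subunits of the chaperonin TRiC/CCT, the J-domain proteins of the DNAJA, DNAJB and DNAJC classes, the BAG co-chaperones and the heat shock factors (HSF). The main chaperones and J-domain proteins of the endoplasmic reticulum (Hspa5, Hsp90b1, Dnajb9, Dnajb11 and Dnajc3) were not counted as members. The rule gave 66 of 12393 genes and 131 of 22690 probe sets, each annotated to 1 gene symbol, and 36 of the genes had at least 2 probe sets. Another 2 probe sets matched the rule but carried several genes and were left out.

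RNA of 3 TSR and 3 control samples was hybridised to Affymetrix mouse arrays, 1 array per sample. TSR mice were kept awake by gentle handling for 6 h per day, early in the light phase, on 5 days in a row and were killed on the last day at ZT18 (18 h after lights on), and control mice were not handled in this way and were collected at the same ZT18. Both groups were C57BL/6 mice, young adult males housed in groups with free access to chow. Neither source says whether the RNA of an array came from 1 mouse or from several. The p-values here weigh the difference between the groups against the scatter between arrays, which may not be the scatter between mice. The values are MAS5 signals, a linear fluorescence intensity that the authors had scaled to the same target on every array.

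Chaperones bind unfolded or partly folded proteins and help them to reach or keep their native form. HSP70 works in a cycle in which J-domain proteins deliver the substrate and stimulate ATP hydrolysis, and HSP110 and BAG proteins exchange the nucleotide so that the substrate is released, while HSP90 acts later on clients such as kinases and the glucocorticoid receptor. TRiC/CCT folds actin and tubulin in a closed chamber, HSP60 and HSP10 form the corresponding chamber of mitochondria, and heat shock factors bind heat shock elements in the promoters of many of these genes.

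The arrays of a group correlated with r between 0.991 and 0.993 and arrays of different groups with r between 0.962 and 0.965, across tested probe sets, which are not independent replicates. Median signals lay between 127 and 141. The adipocyte markers Adipoq and Fabp4 were among the brightest signals on every array, with 11541.1 to 14532.7 and 15581.6 to 18349.1 in TSR samples and 15544.6 to 20944.2 and 20476.5 to 24462.1 in control samples, as the labelled tissue would give. Of 8 adipocyte markers on the array, 4 were lower in all TSR samples (Adipoq, Fabp4, Cidec and Retn) and 4 were higher in all of them (Lep, Lipe, Pparg and Acvr1c). Markers of other cell types differed between the groups. Of 18 hepatocyte markers on the array, 17 were higher in all TSR samples than in all control samples (summed signal 24437.5 to 28024.7 in TSR and 15570.3 to 19304.5 in control). The exception was Cyp2e1, which made up most of the control sum. It had 12530.4, 13988.9 and 10844.8 in TSR samples and 16200.3, 18765.9 and 14896.7 in control samples. The sum therefore understates the rise of the other 17. The defining marker Alb had 3177.6, 3359.6 and 3077.1 in TSR samples and 128, 98 and 161 in control samples. All 7 macrophage markers were lower in every TSR sample (summed signal 12897.5 to 13039.0 in TSR and 18808.2 to 19384.5 in control). Of 6 skeletal muscle markers, 1 was higher in all TSR samples (Acta1, log2 fold change 2.23), 1 was lower in all of them (Mylpf, log2 fold change -0.43, not tested because it was dim), and the other 4 were not called or were too dim to be tested. Of the 6, 2 lay below the 25th percentile of every array. The part of these differences in the results on chaperones was not tested, and in bulk tissue fewer cells of a type and less RNA per cell cannot be told apart.

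Of the 66 members, 58 had a probe set above the filter on low signals and were tested. The other 8 (Dnajc5b, Cct6b, Hspa1l, Dnajc17, Dnajb3, Hsf4, Dnajb8 and Dnajb7) were too dim on these arrays to be compared. Each gene is represented by its brightest probe set, and a change was called at an adjusted p below 0.05 (limma, Benjamini-Hochberg over all 14707 tested probe sets). In TSR samples 22 members were higher, 9 were lower and 27 were not called. This is 37.9% higher and 15.5% lower, against 24.0% higher and 23.0% lower of all 8619 tested genes, and the median log2 fold change was 0.16 for the members and 0.01 for all genes. The split depended on the scaling of the arrays, which moved all probe sets and not only the members. Centring the arrays on their medians shifted the median of all tested probe sets by -0.106 on the log2 scale. It gave 14 members higher and 16 lower, with a member median of 0.05. Quantile normalization shifted the median of all tested probe sets by -0.05 and gave 23 members higher and 11 lower. The shares of all genes called under these scalings were not counted, so these counts cannot be set against 24.0% and 23.0%. In 24 members all TSR samples lay above all control samples, in 12 all lay below, and in 22 the groups overlapped. How many of all tested genes separate in this way was not counted, so these counts cannot be set against a general level. With 3 samples against 3, an exact permutation test of 1 gene cannot reach a two-sided p below 0.1.

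**Figure D1:**
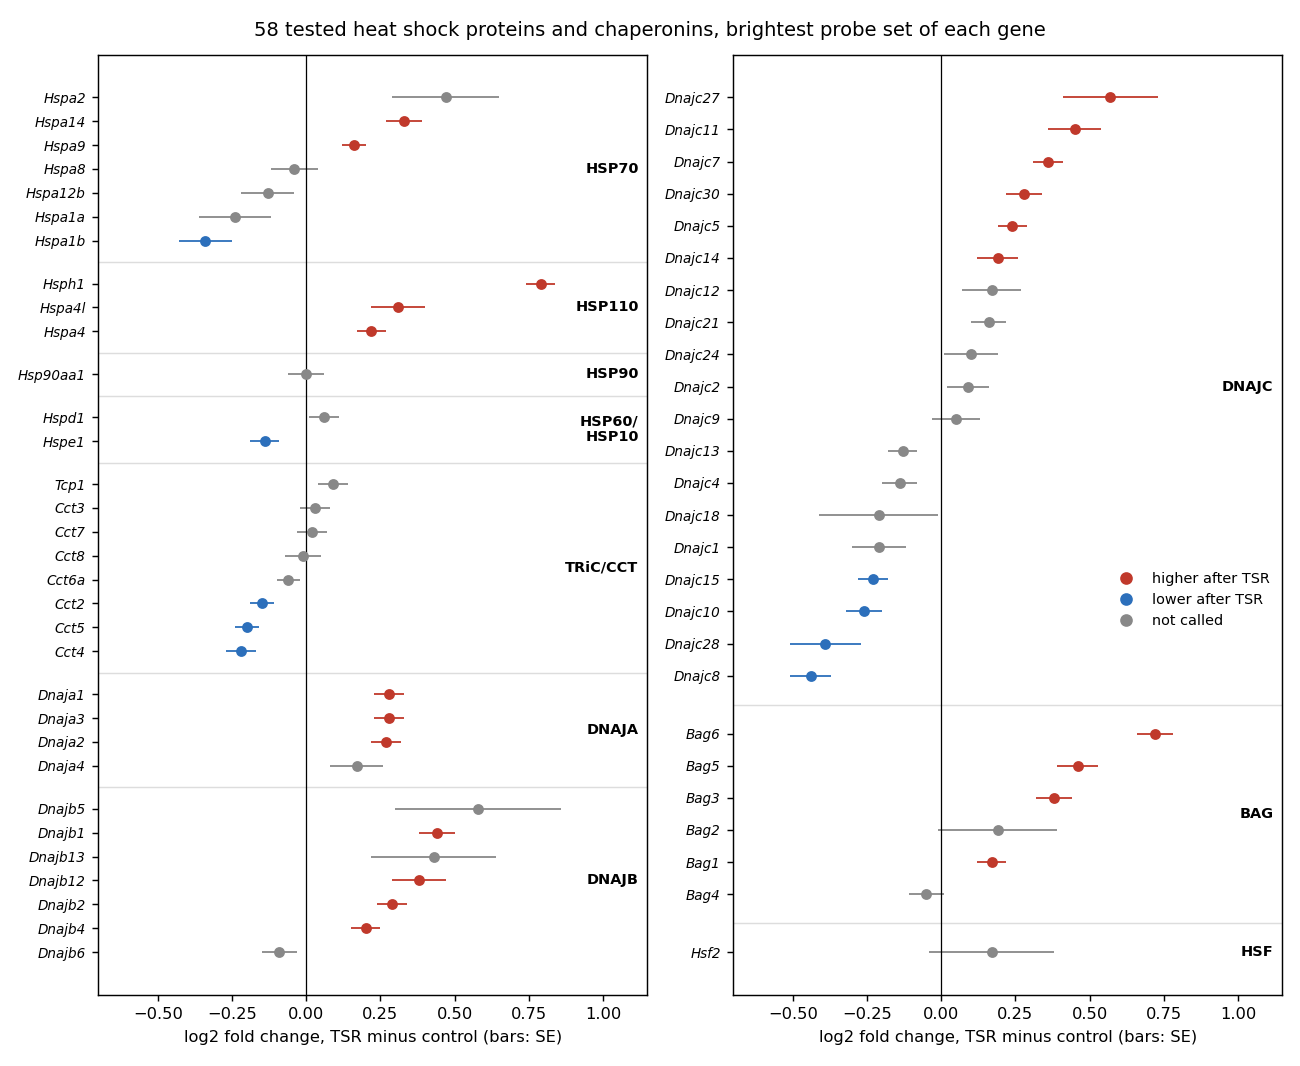
Log2 fold change (TSR minus control, x axis) of the brightest probe set of each of the 58 tested members, grouped by family, with bars showing the standard error and colours showing the call. The 3 HSP110-type genes are all to the right of 0, led by Hsph1 at 0.79, while no tested TRiC/CCT subunit was called higher by its brightest probe set with the signals as scaled by MAS5.

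The calls were spread unevenly over the families. All 3 HSP110-type genes were higher in TSR samples, as were 3 of 4 DNAJA, 4 of 7 DNAJB and 4 of 6 BAG genes, and none of these 4 families had a member called lower. Among these rises, median centring ended the calls of Hspa4, Hspa4l, Dnajb4 and Bag1. That of Hspa4l was also lost with quantile normalization and with the methods' t-test. Of 19 tested DNAJC genes 6 were higher (31.6%) and 4 lower (21.1%). Of 7 HSP70 genes 2 were higher (28.6%) and 1 lower (14.3%). Among all tested genes these shares were 24.0% and 23.0%. No TRiC/CCT subunit was higher and 3 of 8 were lower. For each of these absences limma also gave 0 genes at an unadjusted p below 0.05, and the methods' t-test gave 0 after Benjamini-Hochberg adjustment. Other scalings and other choices of probe set did not keep all of them. With median centring Dnajb6 was called lower (log2 fold change -0.19, adjusted p = 0.043). With quantile normalization Tcp1 was called higher (0.13, adjusted p = 0.032), with the probe sets of each gene averaged Cct3 (0.29, adjusted p = 0.016) and Cct7 (0.11, adjusted p = 0.0465), and with the dimmest probe set Cct7 (0.21, adjusted p = 0.0489). Median log2 fold changes were 0.31 for HSP110, 0.27 for DNAJA, 0.38 for DNAJB and 0.28 for BAG, and these stayed above 0 with both other scalings of the arrays. The median of TRiC/CCT was -0.03. Among families with at least 3 tested genes, the medians of 2 changed sign with the scaling. That of HSP70 was -0.04, 0.21 with quantile normalization and -0.15 with median centring. That of DNAJC was 0.09, and -0.02 with either.

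**Figure D2:**
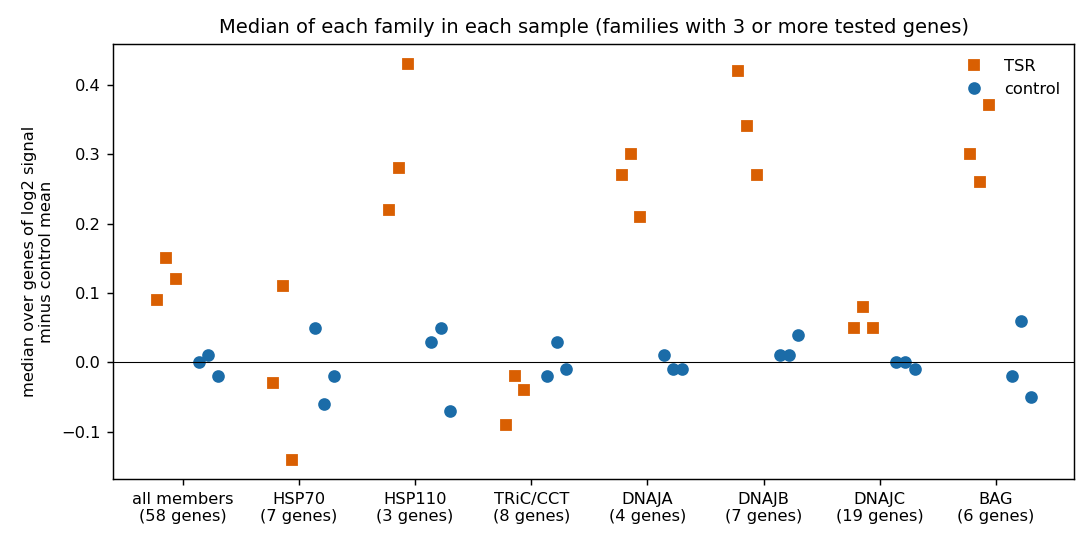
Median over the genes of a family of the log2 signal minus its control mean (y axis) in each of the 3 TSR samples (squares) and 3 control samples (circles), for all members and for families with at least 3 tested genes. In DNAJA, DNAJB and BAG the TSR samples all sit at or above 0.21, whereas no control sample exceeds 0.06, and for HSP70 the groups overlap.

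Heat shock elements are rows of the units GAA and TTC that alternate with 2 bases between them, and bases before the start of 6 members are shown here because their elements can be set beside the calls. The sequences are from RefSeq (GRCm38.p6), read along the strand of the gene up to the base before its annotated start, and capitals mark the units of each element. Hsph1 and Dnaja1 were called higher and have an element of 2 units, Dnajb6 was not called and has 3 units, and Hspa1b (2 units), Hspe1 (4 units) and Cct5 (2 units) were called lower.
Hsph1 (chr5:149636337-149636486, minus strand): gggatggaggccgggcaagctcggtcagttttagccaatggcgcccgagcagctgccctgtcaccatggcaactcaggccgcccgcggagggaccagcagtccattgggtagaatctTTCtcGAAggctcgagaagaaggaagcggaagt
Dnaja1 (chr4:40722318-40722467, plus strand): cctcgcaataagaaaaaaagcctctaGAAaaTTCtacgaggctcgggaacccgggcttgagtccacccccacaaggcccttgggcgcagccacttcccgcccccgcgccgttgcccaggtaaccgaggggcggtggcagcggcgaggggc
Dnajb6 (chr5:29735748-29735897, plus strand): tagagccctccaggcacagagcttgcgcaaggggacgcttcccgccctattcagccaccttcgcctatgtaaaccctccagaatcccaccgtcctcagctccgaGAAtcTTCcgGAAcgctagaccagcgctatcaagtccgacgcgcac
Hspa1b (chr17:34959239-34959388, minus strand): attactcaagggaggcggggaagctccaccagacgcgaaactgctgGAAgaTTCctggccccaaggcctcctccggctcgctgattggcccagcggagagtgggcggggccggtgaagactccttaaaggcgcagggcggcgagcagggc
Hspe1 (chr1:55087998-55088147, plus strand): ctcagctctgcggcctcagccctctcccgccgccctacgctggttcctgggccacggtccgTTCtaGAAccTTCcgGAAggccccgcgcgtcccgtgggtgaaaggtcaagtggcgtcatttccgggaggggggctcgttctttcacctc
Cct5 (chr15:31601847-31601996, minus strand): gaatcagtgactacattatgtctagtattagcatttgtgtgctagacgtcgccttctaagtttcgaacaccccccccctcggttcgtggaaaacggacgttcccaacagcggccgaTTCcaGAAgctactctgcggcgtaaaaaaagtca

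A promoter entry of 250 bases before to 50 bases after a start was found for 53 of the 66 members. Elements of at least 2 units (GAANNTTC or TTCNNGAA, each its own reverse complement, so that both strands are covered) occurred in 15 of the 53 (28.3%), against 17.0% of the 27025 genes with an entry. Elements of at least 3 units, which contain the shorter ones, occurred in 4 of the 53 members (7.55%) and in 0.662% of all genes. These 4 were Hsph1, Dnajb6, Hspd1 and Hspe1. Hspd1 and Hspe1 lie head to head and share the 4-unit element printed above (chr1:55088059-55088076), and Hsph1 has its 3 units after the start (chr5:149636288-149636300). The 150 bases before the starts of Hspa1a and Hspa1b were identical at 149 positions. Elements of at least 2 units were found in 5 of 18 members called higher, 5 of 8 called lower and 5 of 21 not called, a description of letters in these windows only.

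Among the HSP110-type exchange factors, Hsph1 (HSP105) had the largest change of all members. Its signal was 1270.1, 1254.6 and 1187.4 in TSR samples and 733, 722 and 693 in control samples. The lowest TSR sample was far above the highest control sample, and the fold change was 1.73 (log2 0.79, SE 0.05, adjusted p = 5.2e-06, limma). A second, dimmer probe set of Hsph1 gave 452, 446 and 515 in TSR samples and 213, 222 and 209 in control samples, a log2 fold change of 1.13 (adjusted p = 9.2e-06). Hspa4 (APG-2), the brightest of the HSP110 type, had 1815.8, 1903.3 and 1906.1 in TSR samples and 1642.8, 1667.9 and 1534.3 in control samples. The groups did not overlap, but the difference was small (log2 fold change 0.22, SE 0.05, adjusted p = 0.0061) and was not called with median centring (0.11, adjusted p = 0.13). Of its other 2 tested probe sets 1 was also higher (0.58, adjusted p = 0.0016), and 1 was not called (log2 fold change -0.05, adjusted p = 0.74). Hspa4l (APG-1) was higher at both probe sets, by 0.31 (adjusted p = 0.018) and 0.63 (adjusted p = 7.7e-04) on the log2 scale. The smaller of these calls was lost without TSR replicate 3 (adjusted p = 0.063) or without control replicate 3 (adjusted p = 0.055). It was also lost with median centring (adjusted p = 0.081) and with the methods' t-test on linear (adjusted p = 0.058) or log2 signals (adjusted p = 0.055).

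HSP90 was represented by Hsp90aa1, the stress-inducible cytosolic form. Its brightest probe set had 4330.8, 4148.4 and 4506.1 in TSR samples and 3991.8, 4375.7 and 4646.4 in control samples, and the groups overlapped (log2 fold change -0.00, SE 0.06, adjusted p = 0.99). The other 2 probe sets of the gene were both higher. The first had 2071.5, 2164.0 and 2014.0 in TSR samples and 1152.5, 1205.8 and 1130.1 in control samples, a log2 fold change of 0.84 (SE 0.05, adjusted p = 2.9e-06). The second had 2547.1, 2499.9 and 2611.0 in TSR samples and 1967.1, 1890.8 and 1901.8 in control samples, a log2 fold change of 0.41 (adjusted p = 8.1e-05). No probe set of the gene was called lower, but the size of the difference varied between them. Which transcripts each probe set reads was not tested here, so the change of this gene as a whole has no single size in these data.

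Calls among the HSP70 genes went in both directions, as they did among all tested genes. Hspa8 (HSC70), the constitutive cytosolic form and the brightest member of all, had 11945.7, 13321.1 and 10747.1 in TSR samples and 12704.1, 12859.3 and 11394.2 in control samples, and the groups overlapped (log2 fold change -0.04, SE 0.08, adjusted p = 0.71). With quantile normalization Hspa8 was instead called higher (0.29, adjusted p = 5.6e-04), so its direction depended on the scaling. Of its 3 dimmer tested probe sets 2 were not called either, and 1 was lower with 290, 282 and 283 in TSR samples and 543, 447 and 414 in control samples (log2 fold change -0.71, adjusted p = 4.9e-04). Hspa9 (mortalin), the HSP70 of mitochondria, was higher by 0.16 (adjusted p = 0.0097), and its second tested probe set was not called (0.04, adjusted p = 0.77). With median centring the difference was 0.05 and was not called (adjusted p = 0.42). Hspa14, which acts at the ribosome, was higher by 0.33 on the log2 scale (adjusted p = 0.0016). Its other tested probe set was not called (0.23, adjusted p = 0.57), and neither was the mean of its probe sets (0.28, adjusted p = 0.17).

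The stress-inducible pair Hspa1a and Hspa1b was not higher in TSR samples. Hspa1b had 1382.7, 1066.8 and 1268.0 in TSR samples and 1655.1, 1499.2 and 1535.1 in control samples, so that every TSR sample was lower (log2 fold change -0.34, SE 0.09, adjusted p = 0.012). Its other 2 probe sets had log2 fold changes of -0.16 and -0.14 and were not called (adjusted p = 0.062 and 0.075). With the methods' t-test the call of Hspa1b was lost, on linear signals (adjusted p = 0.082) and on log2 signals (adjusted p = 0.096). Hspa1a had 228, 258 and 236 in TSR samples and 309, 237 and 315 in control samples, and control replicate 2 overlapped the TSR samples (log2 fold change -0.24, adjusted p = 0.12). Hspa1a was called lower without that sample (-0.38, adjusted p = 0.011), with quantile normalization (-0.34, adjusted p = 0.043) and with median centring (-0.35, adjusted p = 0.031). The 2 genes are nearly identical copies, and their signals may not be separate. Hspa2, an HSP70 best known from male germ cells, had 312, 329 and 519 in TSR samples and 254, 251 and 315 in control samples. It was not called (0.47, adjusted p = 0.062), except in 3 alternatives. These were without TSR replicate 1 (0.60, adjusted p = 0.038), without control replicate 3 (0.58, adjusted p = 0.0494) and with the replicate number as a block (adjusted p = 0.0047). Of 10 testis germ cell markers 7 lay below the 25th percentile on every array, and their summed signal was 41.7 to 94.8 in TSR samples and 55.7 to 110 in control samples. Hspa12b, a distant relative found in endothelium, was not called (-0.13, adjusted p = 0.24), except with median centring (-0.24, adjusted p = 0.040).

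**Figure D3:**
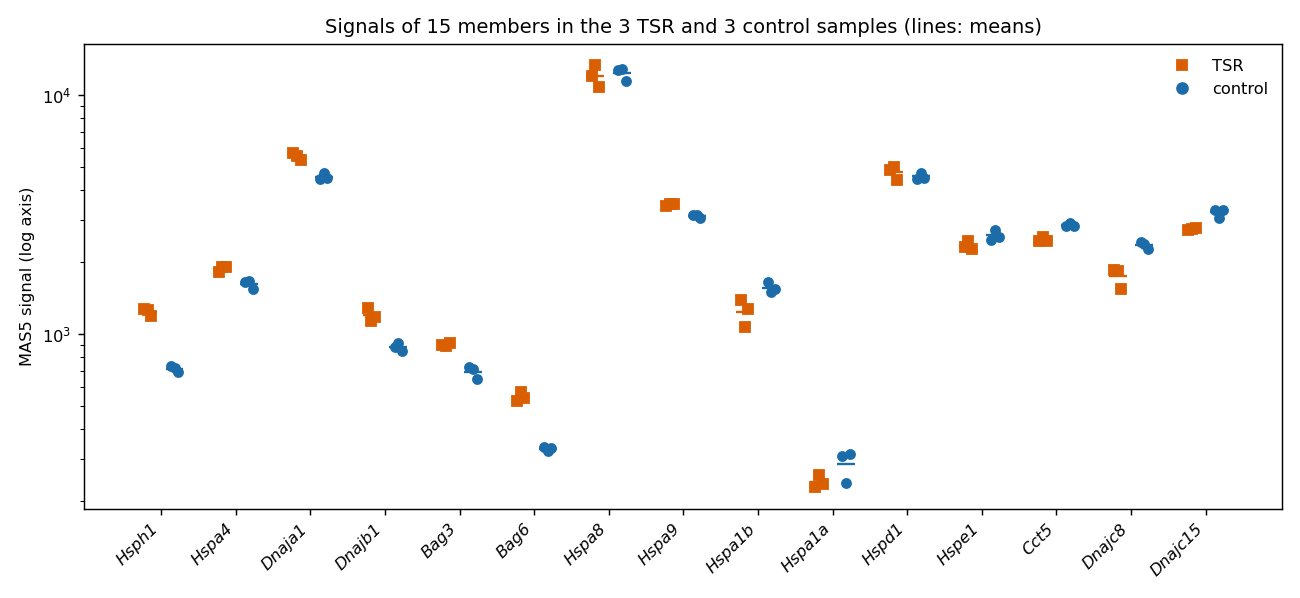
MAS5 signal (y axis, log scale) of 15 members in each of the 3 TSR samples (squares) and 3 control samples (circles), with lines at the group means, from the brightest probe set of each gene. Hsph1 and Bag6 show the widest gaps, with every TSR sample above every control sample, while Hspa8, the brightest, overlaps and Dnajc8 and Dnajc15 are lower in all TSR samples.

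The J-domain proteins of the DNAJA and DNAJB classes, the general partners of HSP70, were mostly higher. Dnaja1, the brightest of its class, had 5704.3, 5554.5 and 5332.3 in TSR samples and 4462.4, 4720.0 and 4479.7 in control samples, with no overlap (log2 fold change 0.28, SE 0.05, adjusted p = 0.0013), and its second probe set was higher by 0.32 (adjusted p = 4.6e-04). Dnaja2 (0.27) and the mitochondrial Dnaja3 (0.28) were higher by similar amounts, and a dimmer probe set of Dnaja3 by 0.96 (adjusted p = 1.2e-04). The dimmer probe set of Dnaja2 was not called (-0.05, adjusted p = 0.62), and neither was the mean of the Dnaja2 probe sets (0.11, adjusted p = 0.15). Dnaja4 was not called (0.17, adjusted p = 0.15), although all TSR samples were above all control samples.

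Dnajb1, the classical HSP40, was higher at both of its probe sets, by 0.44 (adjusted p = 3.7e-04) and 0.52 (adjusted p = 4.9e-04) on the log2 scale. Dnajb2 (0.29), Dnajb4 (0.20) and Dnajb12 (0.38), which sits in the membrane of the endoplasmic reticulum, were also higher, with adjusted p between 0.0026 and 0.0095, though Dnajb4 was not called with median centring (0.10, adjusted p = 0.2) and Dnajb12 was not called at its dimmer probe set (0.20, adjusted p = 0.29). Dnajb6, a suppressor of protein aggregation and the brightest of the class, had 2689.7, 2790.5 and 2588.1 in TSR samples and 2672.9, 2878.0 and 3034.7 in control samples. These groups overlapped (log2 fold change -0.09, SE 0.06, adjusted p = 0.23). A dimmer probe set of Dnajb6 was higher, with 268, 268 and 304 in TSR samples and 186, 149 and 211 in control samples (0.63, adjusted p = 0.004), and its other 2 had log2 fold changes of -0.27 and -0.30 that were not called. Dnajb5 (0.58, adjusted p = 0.12) and Dnajb13 (0.43, adjusted p = 0.13) had large but scattered differences, and their groups overlapped. Dnajb5 was called without control replicate 1 (0.86, adjusted p = 0.032) and with the replicate number as a block (adjusted p = 0.025). Dnajb13 was called without control replicate 2 (0.63, adjusted p = 0.034).

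Calls in the DNAJC class, whose members have specialised tasks and locations, went in both directions, as they did among all tested genes. Dnajc27, a small GTPase with a J domain, had 158, 133 and 132 in TSR samples and 112, 96.1 and 78.7 in control samples (log2 fold change 0.57, SE 0.16, adjusted p = 0.016), a call that was lost without TSR replicate 1 (adjusted p = 0.065) and with the methods' t-test on linear (adjusted p = 0.064) or log2 signals (adjusted p = 0.072). Dnajc11, of the inner mitochondrial membrane organising complex, was higher by 0.45 (adjusted p = 0.0035) and 0.60 (adjusted p = 0.0044) at its 2 probe sets. Dnajc7, which binds both HSP70 and HSP90, was higher by 0.36 (adjusted p = 5.8e-04).

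Dnajc5, the cysteine string protein of secretory vesicles, was called higher at 3 of 5 probe sets, with log2 fold changes of 0.24, 0.44 and 1.04. The mitochondrial Dnajc30 (0.28, adjusted p = 0.0037) was higher too. Dnajc14 (0.19) was the weakest call, with an adjusted p that rounds to 0.05. It was lost when any array but TSR replicate 1 was left out (adjusted p between 0.065 without control replicate 2 and 0.16 without TSR replicate 2), whereas a dimmer probe set of the gene was higher by 0.50 (adjusted p = 0.0011).

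Lower were Dnajc8, Dnajc10, Dnajc15 and Dnajc28. Dnajc15, an inner mitochondrial membrane protein and the brightest of the class, had 2728.6, 2741.0 and 2762.9 in TSR samples and 3311.1, 3068.1 and 3308.9 in control samples (log2 fold change -0.23, SE 0.05, adjusted p = 0.0028). The TSR samples lay close together and below every control sample. Dnajc8, associated with the spliceosome, had the largest fall of all members, with 1859.2, 1829.1 and 1544.6 in TSR samples and 2430.8, 2372.4 and 2267.5 in control samples (log2 fold change -0.44, SE 0.07, adjusted p = 0.0012). Dnajc10, a disulfide reductase of the endoplasmic reticulum, was lower (log2 fold change -0.26, adjusted p = 0.0069). Its other 2 tested probe sets were not called (-0.14, adjusted p = 0.093, and -0.09, adjusted p = 0.68), and the call was lost with the mean of its probe sets (-0.16, adjusted p = 0.072) and with the methods' t-test on linear signals (adjusted p = 0.0535). Dnajc28 was lower (log2 fold change -0.39, adjusted p = 0.03), a call that was lost when any of 4 single arrays was left out (adjusted p = 0.094 without TSR replicate 2, 0.056 without TSR replicate 3, 0.1 without control replicate 1 and 0.058 without control replicate 2).

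Of the BAG proteins, Bag6, which guards newly made membrane proteins in the cytosol, changed most. It had 525, 571 and 538 in TSR samples and 335, 323 and 333 in control samples (log2 fold change 0.72, SE 0.06, adjusted p = 3.0e-05). Every TSR sample was well above every control sample. Bag1, the brightest, had 3527.3, 3341.8 and 3271.8 in TSR samples and 3018.3, 3084.3 and 2926.2 in control samples, a small difference without overlap (0.17, SE 0.05, adjusted p = 0.016) that was not called without TSR replicate 1 (adjusted p = 0.075) or without control replicate 3 (adjusted p = 0.0543). Bag3, which directs HSP70 clients to autophagy, was higher by 0.38 (adjusted p = 7.4e-04) and Bag5 by 0.46 (adjusted p = 5.5e-04). Bag2 (0.19, adjusted p = 0.46) and the brightest probe set of Bag4 (-0.05, adjusted p = 0.56) were not called, while a dimmer probe set of Bag4 was higher by 0.69 (adjusted p = 0.0018).

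The chaperonins showed small differences. Hspd1 (HSP60) had 4827.7, 4995.7 and 4414.4 in TSR samples and 4468.2, 4698.7 and 4500.3 in control samples, with overlap (log2 fold change 0.06, SE 0.05, adjusted p = 0.42), and was called higher with quantile normalization (0.14, adjusted p = 0.038), whereas median centring gave -0.05 (adjusted p = 0.59). Its partner Hspe1 (HSP10) had 2314.7, 2442.4 and 2263.4 in TSR samples and 2480.5, 2731.1 and 2550.7 in control samples, and was just past the threshold (-0.14, SE 0.05, adjusted p = 0.0461), whereas its second probe set was not called (-0.13, adjusted p = 0.13). The call of Hspe1 was lost without TSR replicate 1 (adjusted p = 0.13), TSR replicate 3 (0.12), control replicate 2 (0.13) or control replicate 3 (0.075).

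Of TRiC/CCT, the brightest subunit Cct6a had 4275.7, 4340.6 and 4310.4 in TSR samples and 4412.1, 4393.7 and 4716.2 in control samples (log2 fold change -0.06, SE 0.04, adjusted p = 0.27). Its TSR samples were all below the control samples at this probe set and all above them at the other (0.11, adjusted p = 0.061), and neither was called, although the brightest was called lower with median centring (-0.17, adjusted p = 0.032). The 3 subunits called lower were Cct2 (-0.15, adjusted p = 0.021), Cct4 (-0.22, adjusted p = 0.0059) and Cct5 (-0.20, adjusted p = 0.004). The other 5, Tcp1, Cct3, Cct6a, Cct7 and Cct8, had log2 fold changes between -0.06 and 0.09 at their brightest probe sets. The call of Cct2 was lost without TSR replicate 1 (adjusted p = 0.079), TSR replicate 3 (0.0544), control replicate 2 (0.0547) or control replicate 3 (0.0502). It was also lost with the mean of its probe sets (-0.11, adjusted p = 0.12). The dimmer tested probe sets of Cct2 were not called (-0.08, adjusted p = 0.17, and -0.11, adjusted p = 0.55). A dimmer probe set of Cct4 was also lower (-0.17, adjusted p = 0.03), and the rest of that gene were not called (-0.09, 0.02 and 0.87). Cct3 had a dim probe set that was higher, with 289, 348 and 306 in TSR samples and 158, 147 and 157 in control samples (1.03, adjusted p = 4.8e-05), while its brightest had a log2 fold change of 0.03 (adjusted p = 0.63). The dimmer probe set of Cct7 was also called higher (0.21, adjusted p = 0.0489), although its groups overlapped.

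The heat shock factor Hsf2, the brightest and only tested HSF member, had 111, 64.5 and 96.9 in TSR samples and 79.3, 71 and 86.5 in control samples. The TSR samples spanned the range of the control samples, and the gene was not called (log2 fold change 0.17, SE 0.21, adjusted p = 0.53).

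Because several members differed between their probe sets, all 108 tested probe sets of the members were counted. Of these 39 were higher, 11 were lower and 58 were not called, against 25.6% higher and 21.0% lower of all tested probe sets. No member had probe sets called in opposite directions, 27 members had at least 1 probe set called higher and 10 had at least 1 called lower. The corresponding counts over all genes were not made, so these numbers have no general level beside them. In 21 of the 31 members with at least 2 tested probe sets (67.7%), the dimmest had the higher log2 fold change, and so it was in 69.2% of 3236 genes overall. The median difference between dimmest and brightest was 0.08 for members and 0.16 for all genes. The control probes for transcript ends also differed between the groups: the log2 signal of the 5′ probe set minus that of the 3′ probe set was on average -0.67 in TSR and -1.22 in control samples for beta-actin, and 0.13 in TSR and -0.52 in control samples for Gapdh. Some control probes for transcripts not from mouse differed as well. The same measure was -2.84 in TSR and -4.10 in control samples for DapX, and -0.64 and -1.43 for PheX. It was -0.39 in TSR and -0.23 in control samples for BioC, and 0.05 and 0.04 for CreX, so not all such probes shifted. The part of these differences between ends in the calls of the members, and in the differences between probe sets, was not tested.

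**Figure D4:**
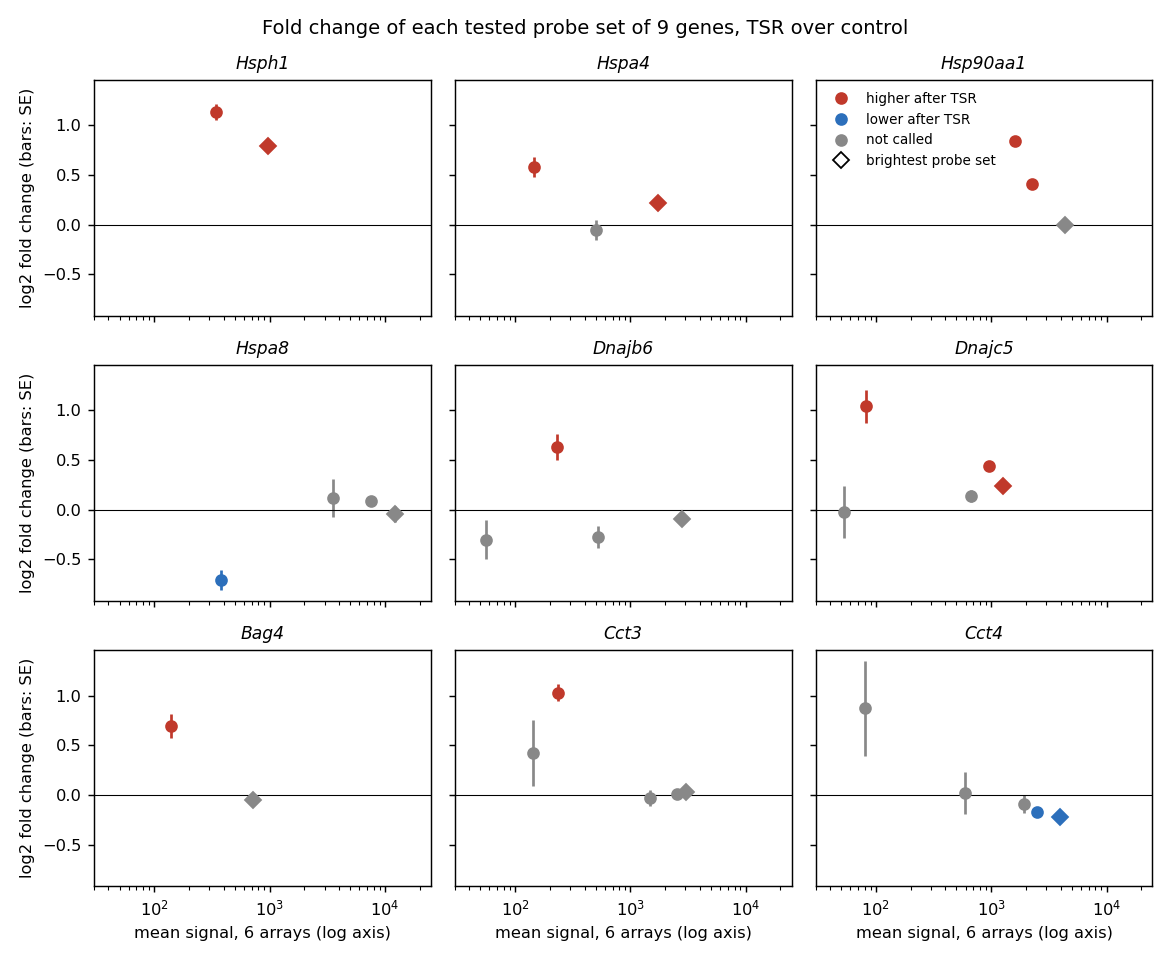
Log2 fold change (TSR minus control, y axis, bars showing the standard error) against mean signal over the 6 arrays (x axis, log scale) for each tested probe set of 9 members, with diamonds for the brightest. Both Hsph1 probe sets are higher, whereas in Hsp90aa1, Dnajb6, Bag4 and Cct3 a dimmer probe set is higher and the brightest is not called.

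Partner proteins of these chaperones were counted from lists of the same pathway. Of 20 co-chaperones of HSP70 and HSP90, all tested, 8 were higher (40.0%) and 2 were lower, against 24.0% higher and 23.0% lower of all tested genes, with a median log2 fold change of 0.07 against 0.01. The largest rises were those of Fkbp4 (0.58, adjusted p = 4.5e-04) and Fkbp5 (0.55, adjusted p = 1.2e-04), immunophilins of HSP90 that bind the glucocorticoid receptor complex. Fkbp5 had 2548.6, 2767.8 and 2362.9 in TSR samples and 1699.7, 1745.2 and 1787.0 in control samples. Lower were Sil1 (-0.29, adjusted p = 0.0025), the exchange factor of the HSP70 of the endoplasmic reticulum, and Cdc37l1 (-0.28, adjusted p = 0.0017), a relative of the kinase co-chaperone Cdc37.

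Of 13 genes for prefoldin, which hands actin and tubulin to TRiC, for regulators of TRiC and for tubulin cofactors, 2 were higher (15.4%) and 3 were lower (23.1%), against 24.0% higher and 23.0% lower of all tested genes, so the share called lower was at the general level (median 0.08). Pfdn2 (0.33, adjusted p = 0.017) and Tbcc (0.25, adjusted p = 0.023) were higher. Tbca, which holds beta-tubulin after folding, was lower (-0.45, adjusted p = 4.8e-05), as were Vbp1 (-0.27, adjusted p = 0.015) and Pfdn5 (-0.24, adjusted p = 0.0022). Of the 5 chaperones of the endoplasmic reticulum that the rule left out, 0 were higher by limma (1 at an unadjusted p below 0.05, and 0 by the methods' t-test after adjustment), 2 were lower and 3 were not called. Hspa5 (BiP) had a log2 fold change of -0.24 (adjusted p = 0.0073) and Hsp90b1 (GRP94) of -0.24 (adjusted p = 0.043).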

How the data were processed

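RNA of 3 TSR and 3 control WAT samples was measured on Affymetrix mouse arrays. The authors computed MAS5 signal intensities with Expression Console (version not given in the sources used here), and the deposited intensities are linear. Their expression calls were not used here. The paper states RNAlater and a lipid tissue kit, and the labels state liquid nitrogen and Trizol.

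Probe sets were named through the platform annotation. All 66 members were found in RefSeq by Entrez identifier, and promoters were read from RefSeq (GRCm38.p6). Signals were taken to log2, and probe sets were left out if they were controls (64) or if their mean log2 signal was under 5.45, the dimmest 35%. The remaining 14707 were compared with limma 3.58.1 in R 4.3.3 (eBayes with intensity trend, 4.86 prior degrees of freedom, two-sided, Benjamini-Hochberg, threshold 0.05), tested on simulated data. Tables were made with Python 3.11.15. A fold change divides the mean signals, and a log2 fold change subtracts the mean log2 signals. Dim probe sets and those shared between similar transcripts give less precise values, and 3 arrays per group limit the precision.

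Values in every sample were planned for members called with a log2 fold change of at least 0.5 in size, for the brightest member of each family and, from the lists of partners, the 2 largest rises and 2 largest falls were named. Hspa1a, Hspa1b, Hspa2, Hspe1, Dnajc8, Fkbp5 and single dimmer probe sets were given in full after their values were seen, as were the third fall of the prefoldin list and the 6 printed promoters. The members and lists were chosen with earlier results of these data known. Alternatives were the methods' t-test on linear and log2 signals, limma without trend, quantile normalization, median centring, a filter on the lowest 50% or none, a floor at the 25th percentile of an array, the mean or the dimmest of a gene's probe sets, a replicate block, and omission of single arrays.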

Additional observations from a re-analysis of the deposited data

How the results depend on the processing

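Of the 31 members called, 13 kept their call in each of the 17 alternatives: 10 higher (Dnaja1, Dnaja3, Dnajb1, Dnajb2, Dnajc7, Dnajc11, Hsph1, Bag3, Bag5 and Bag6) and 3 lower (Cct5, Dnajc8 and Dnajc15). The cause of the changes below was not tested.

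The count of members called higher was 22, 14 with median centring and 20 to 22 when an array was left out. The count called lower was 9, 16 with median centring, 5 with the methods' t-test on linear signals, 5 with the dimmest probe set of each gene and 7 to 9 when an array was left out. Counts over all genes under these alternatives were not made. With the replicate number as a block, 24 were higher and 10 were lower, all 31 calls were kept, and Hspa2, Dnajb5 and Dnajc1 were called as well. The numbers were not treated as pairs. The deviations of same-numbered samples correlated with r = 0.015, 0.191 and 0.175, and those of differently numbered samples with r from -0.218 to 0.058. These values do not settle whether the numbers mark pairs.

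The median log2 fold change of all members was 0.16, 0.08 with quantile normalization, 0.05 with median centring, 0.10 with the lowest 50% left out and 0.10 to 0.15 without single arrays. Quantile normalization and median centring shifted the median of all tested probe sets by -0.05 and -0.106. For HSP70 the median of -0.04 became 0.21 with quantile normalization, -0.15 with median centring and 0.06 without a filter (-0.10 to 0.04 without single arrays). For HSP110 it was 0.31, 0.21 with median centring, 0.47 with the mean and 0.63 with the dimmest of a gene's probe sets (0.25 to 0.36 without single arrays). For TRiC/CCT it was -0.03, -0.14 with median centring, 0.05 with the mean and 0.10 with the dimmest probe set (-0.06 to -0.03 without single arrays). For DNAJA it was 0.27, 0.23 with quantile normalization and 0.16 with median centring (0.26 to 0.27 without single arrays). For DNAJB it was 0.38, 0.27 with quantile normalization, 0.27 with median centring and 0.29 with the lowest 50% left out (0.25 to 0.40 without single arrays). For DNAJC it was 0.09, -0.02 with quantile normalization, -0.02 with median centring, 0.05 without a filter, 0.05 with the mean and -0.00 with the dimmest probe set (0.03 to 0.11 without single arrays). For BAG it was 0.28, 0.18 with median centring, 0.38 with the lowest 50% left out, 0.35 with the mean and 0.42 with the dimmest probe set (0.24 to 0.39 without single arrays).

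Of the 31 genes called, 3 changed direction with another choice of probe set and were not called then. Cct4 had a log2 fold change of 0.08 with the mean (adjusted p = 0.48, limma) and 0.87 with the dimmest probe set (adjusted p = 0.17), Dnaja2 had -0.05 (adjusted p = 0.62) and Dnajc5 had -0.02 (adjusted p = 0.95) with the dimmest. Of the genes not called, Bag4 (0.32 with the mean, 0.69 with the dimmest) and Hsp90aa1 (0.42 and 0.84) were called higher with these choices, and Cct6a turned to 0.02 and 0.11 without a call. Median centring ended the calls of Hspa4, Hspa4l, Hspa9, Bag1, Dnajb4, Dnajc5, Dnajc14 and Dnajc30, and quantile normalization those of Cct2, Hspa4l, Hspe1 and Dnajc14. Both newly called Dnajc1, Dnajc4, Dnajc13 and Hspa1a lower. Signal close to background limits the dimmest probe sets.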
